A study of Mus musculus with 8 samples.

Results

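Intermediate filaments are described here through 10 genes in mouse embryonic stem (ES) cells. They are the neurofilament subunits Nefl, Nefm and Nefh, the related neuronal subunit Ina, Nes of precursor cells, Vim of mesenchymal and many cultured cells, and the keratins Krt7, Krt8, Krt18 and Krt19. They are 10 of 18193 genes measured, and 19 of 45101 probe sets carried the symbol of exactly 1 of them. Where a gene had several, 1 was chosen by its mean level over all 8 arrays, the highest being kept, which does not use the groups. The Jmjd2b knockdown (3 arrays) and the Jmjd2c knockdown (2 arrays) received lentiviral short hairpin RNA against the named transcript, and the control (3 arrays) received a hairpin against GFP. All 3 groups were male ES cells labelled ESC, of strain 129S4/Svjae and agouti phenotype, infected, treated with puromycin and grown in ES cell medium with the cytokine LIF. Jmjd2b and Jmjd2c, named Kdm4b and Kdm4c on the array, are histone demethylases, and the study asks what they do in ES cells. The sources used here give neither the number of hairpins per target nor whether arrays of 1 group came from separate infections or cultures. The p-values therefore cover only the scatter among these arrays, and that scatter may be technical.

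Intermediate filaments are rope-like polymers that give cells mechanical strength, and their subunits are made in cell-type-specific sets. Keratins are obligate pairs of a type I and a type II chain: Krt8 pairs with Krt18 in simple epithelia, the first epithelia of the embryo included, and Krt7 and Krt19 are further simple-epithelial chains. Vimentin marks mesenchymal and many cultured cells, nestin marks neural stem cells and other dividing precursors, and alpha-internexin with the 3 neurofilament chains fills the axons of neurons.

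Levels are intensities on a linear scale as deposited, and differences are on the scale of log2(intensity + 16), given with the standard error (SE) of limma. The adjusted p comes from limma with Benjamini-Hochberg adjustment over all 18193 genes, two-sided, and a gene is said to rise or fall where it is under 0.05. Adding 16 understates the change of dim genes. Whether the arrays of groups overlap is given as a description only, for the share of all genes without overlap was not counted. The knockdown of the targets can be seen on the arrays: Kdm4b stood at 10.8%, 6.27% and 3.64% of the control mean in Jmjd2b knockdown arrays 1, 2 and 3, and Kdm4c at 11.1% and 36.7% of it in Jmjd2c knockdown arrays 1 and 2. The other enzyme's transcript was lower too without passing the test: relative to the control mean, Kdm4c stood at 58.7%, 62.5% and 50.8% in the Jmjd2b knockdown (-0.79 ± 0.32, SE, limma adjusted p = 0.102) and Kdm4b at 52.3% and 60.9% in the Jmjd2c knockdown (-0.74 ± 0.31, SE, limma adjusted p = 0.178). The ES cell label was borne out by Pou5f1, the defining pluripotency factor, at 7639 to 8038 in the Jmjd2b knockdown, 7410 to 7536 in the Jmjd2c knockdown and 7784 to 7870 in the control. Of 9 ES cell markers, 7 fell in the Jmjd2b knockdown and 4 in the Jmjd2c knockdown. Low values of Jmjd2b knockdown array 2 and control arrays 1 and 2 stop at 1 with at most 2 exceptions an array, while the other 5 arrays hold 172 to 241 values below 1, so the groups are spread unevenly over 2 kinds of array. The ratio of 3' to 5' actin probe sets was 1.31 to 1.42 in the Jmjd2b knockdown, 1.43 to 1.48 in the Jmjd2c knockdown and 1.45 to 1.63 in the control. The part of array kind and actin ratio in the results below was not tested beyond the values given with them.

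Of the 10 members, 6 rose in the Jmjd2b knockdown (Nefl, Nefm, Ina, Nes, Krt8 and Krt18), 1 fell (Krt7) and 3 did not pass the test (Nefh, Vim and Krt19). Among all genes 24.4% were called in this comparison, 11.5% higher and 12.9% lower. In the Jmjd2c knockdown 3 members rose (Nefl, Nefm and Ina), 1 fell (Krt19) and 6 did not pass, beside 9.53% of all genes called, 4.28% higher and 5.25% lower. The median difference of the 10 members was 1.71 in the Jmjd2b knockdown and 0.35 in the Jmjd2c knockdown, and that of all genes was -0.03 and -0.02. The members were chosen with earlier results in view, so these counts and medians are a description. Both comparisons use the same 3 control arrays. In these bulk samples, more cells of a type and more RNA per cell cannot be told apart.

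**Figure D1:**
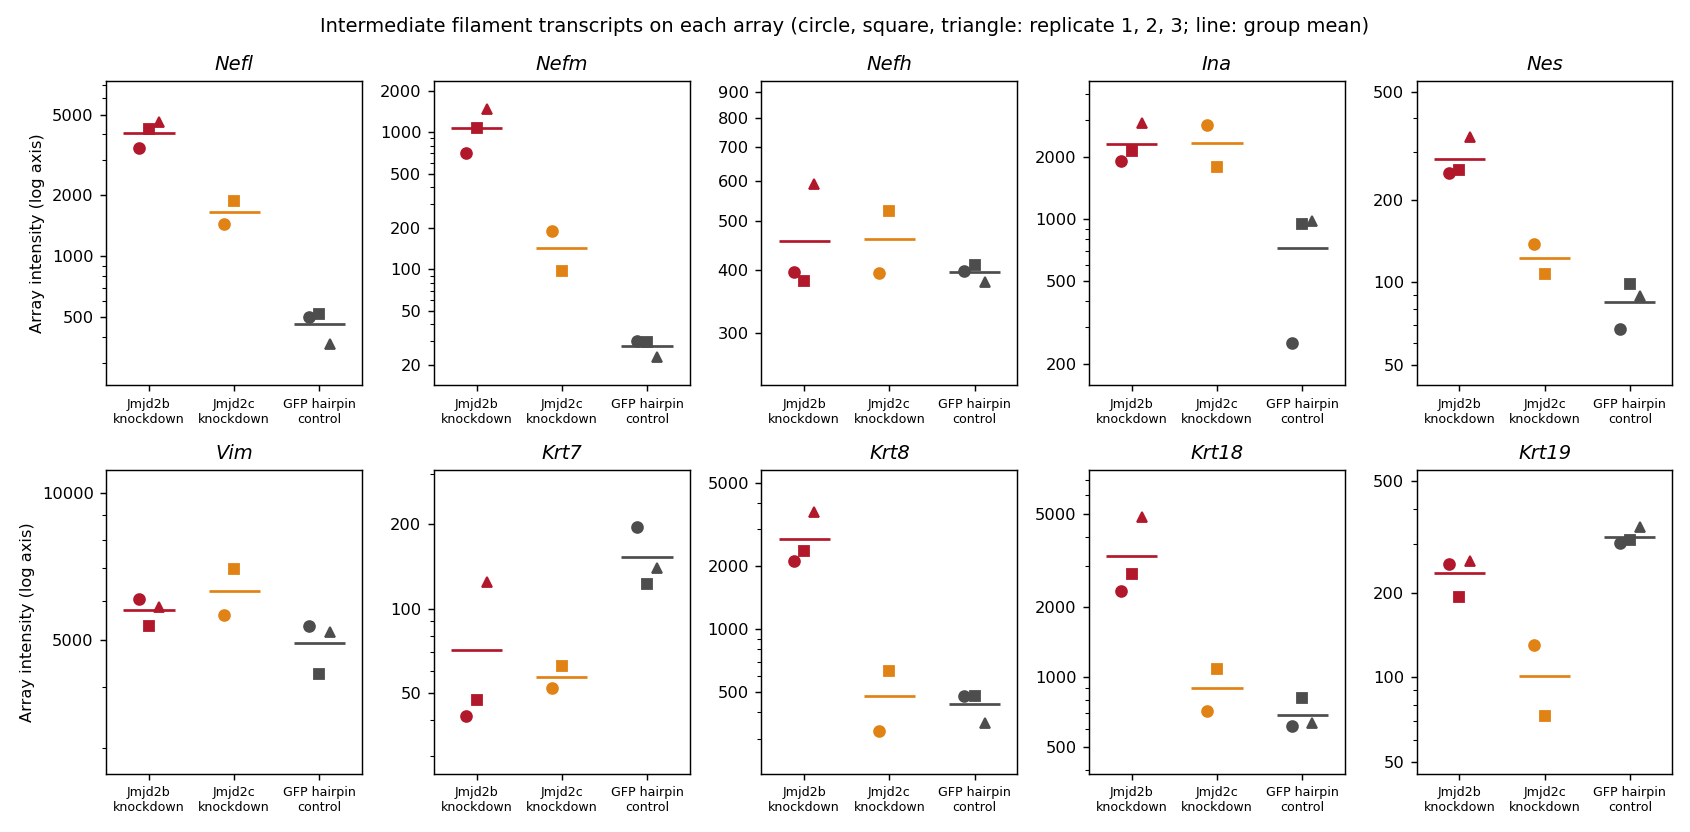
Intensity of each of the 10 genes on every array (log axis, 1 panel and 1 vertical range per gene), with the Jmjd2b knockdown, the Jmjd2c knockdown and the control from left to right; points are arrays (circle, square and triangle for arrays 1, 2 and 3) and lines are group means. The Jmjd2b knockdown arrays of Nefl, Nefm, Nes, Krt8 and Krt18 lie above all arrays of both other groups, while for Krt19 the control arrays lie above the rest.

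The neurofilament light and medium chains rose in both knockdowns, and more in the Jmjd2b knockdown. Nefl, the light chain that forms the filament core, read 3404, 4225 and 4569 in the 3 Jmjd2b knockdown arrays, 1449 and 1874 in the 2 Jmjd2c knockdown arrays, and 504, 523 and 372 in the 3 control arrays. The 3 groups were fully separated, with the Jmjd2b knockdown at the top and the control at the bottom. The difference from the control was 3.09 ± 0.16 (SE, limma adjusted p = 1.4e-05) in the Jmjd2b knockdown and 1.80 ± 0.18 (SE, limma adjusted p = 0.00164) in the Jmjd2c knockdown. As a ratio of mean intensities, the Jmjd2b knockdown stood 8.72-fold above the control. The second Nefl probe set, in a fit of all probe sets, gave 2.94 (limma adjusted p = 4.88e-05) in the Jmjd2b knockdown. In the Jmjd2c knockdown it gave 1.12 (limma adjusted p = 0.0296), so the size of that rise depends on the probe set.

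Nefm, the medium chain, whose long tail projects from the filament, read 700.2, 1065 and 1475 in the Jmjd2b knockdown, 190 and 96.6 in the Jmjd2c knockdown, and 30.3, 29.8 and 23.0 in the control. Control arrays were all dim, and every knockdown array lay above them with no overlap between any groups. The difference was 4.59 ± 0.28 (SE, limma adjusted p = 2.35e-05) in the Jmjd2b knockdown, the 8th largest upward difference among all genes, and 1.80 ± 0.31 (SE, limma adjusted p = 0.00922) in the Jmjd2c knockdown. Since the control level is close to the added constant, the size depends on that constant: the Jmjd2b value was 5.18 with 1 added and 3.58 with 64 added.

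The heavy chain Nefh did not follow them. It read 397, 379.5 and 591 in the Jmjd2b knockdown, 395 and 524 in the Jmjd2c knockdown, and 399, 409.7 and 379 in the control. One array of each knockdown was higher than the rest, and all groups overlapped. The difference from the control was 0.17 ± 0.18 (SE, limma adjusted p = 0.552) in the Jmjd2b knockdown, with a 95% interval of -0.23 to 0.57, and 0.20 ± 0.20 (SE, limma adjusted p = 0.615) in the Jmjd2c knockdown, with an interval of -0.25 to 0.64. Both intervals lie below the estimates of Nefl and Nefm. The sign of Nefh rested on 1 array in each knockdown: it was -0.03 in the Jmjd2b knockdown without Jmjd2b array 3, and -0.00 in the Jmjd2c knockdown without Jmjd2c array 2.

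Ina, alpha-internexin, which joins the neurofilaments in young neurons, rose by a like amount in both knockdowns. Its level was 1899, 2142 and 2902 in the Jmjd2b knockdown, 2858 and 1780 in the Jmjd2c knockdown, and 253, 945 and 984 in the control. Control array 1 was far below the other 2 control arrays, yet every knockdown array lay above all 3. The difference was 1.85 ± 0.44 (SE, limma adjusted p = 0.0124) in the Jmjd2b knockdown and 1.84 ± 0.49 (SE, limma adjusted p = 0.0442) in the Jmjd2c knockdown. Without control array 1 these values were 1.23 and 1.21, and the Jmjd2c call was lost in 11 of 20 alternative settings. On its other 2 probe sets the Jmjd2b difference was 1.92 and 1.84, beside a Jmjd2c difference of 1.74 and 1.61.

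**Figure D2:**
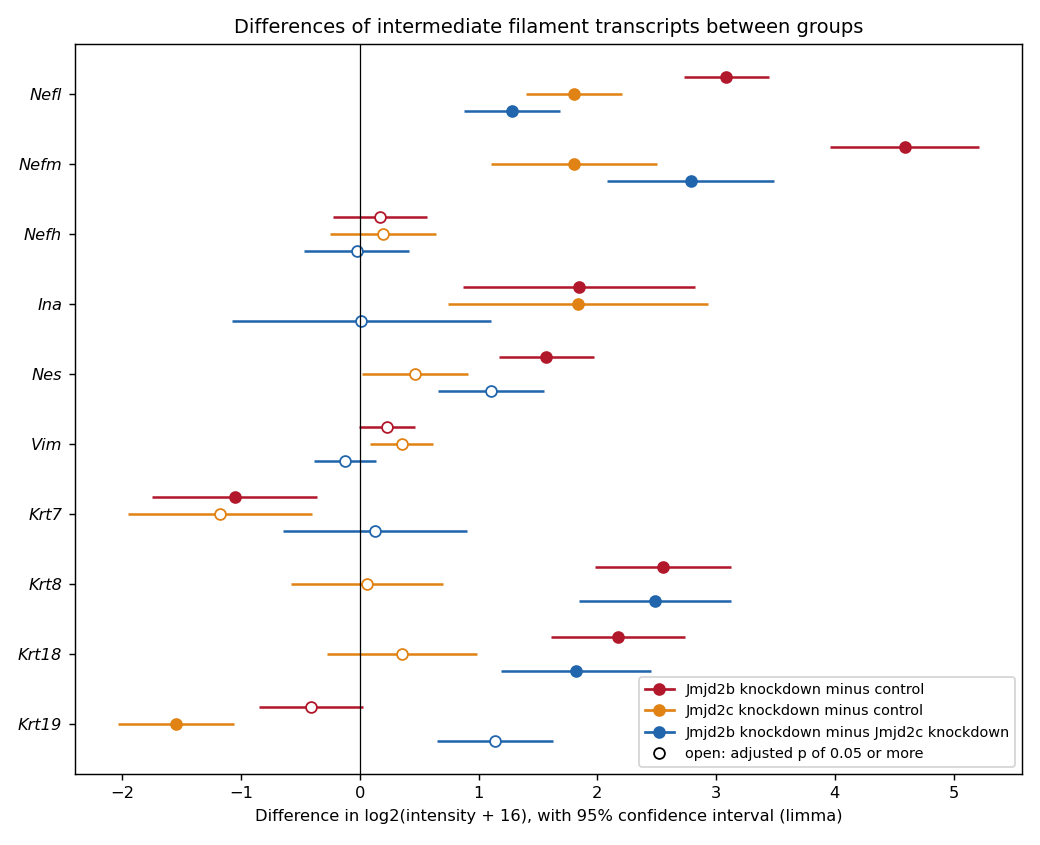
Differences in log2(intensity + 16) of the 10 genes, with limma's 95% confidence intervals as bars, for each knockdown minus the control and for the Jmjd2b minus the Jmjd2c knockdown; filled points have an adjusted p under 0.05. Nefl, Nefm and Ina are filled in both knockdowns, and Nefl, Nefm, Krt8 and Krt18 are filled in the direct comparison of the knockdowns.

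Of the 2 subunits found in precursor and mesenchymal cells, nestin rose in the Jmjd2b knockdown and vimentin did not pass the test in either. Nes read 252, 258 and 341 in the Jmjd2b knockdown, 139 and 107 in the Jmjd2c knockdown, and 67.3, 98.6 and 88.8 in the control. The Jmjd2b knockdown arrays stood clear of all others, and the 2 Jmjd2c knockdown arrays lay just above the control. The difference was 1.57 ± 0.18 (SE, limma adjusted p = 0.000306) in the Jmjd2b knockdown and 0.46 ± 0.20 (SE, limma adjusted p = 0.192) in the Jmjd2c knockdown, where the 95% interval was 0.02 to 0.91.

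Nes is the member whose probe set choice was closest, with a mean log2 level of 7.35 for the chosen probe set and 7.31 for the next. By mean linear intensity the order is the other way, with 169 for the chosen probe set and 226 for the next. That next probe set read 295, 388 and 722 in the Jmjd2b knockdown, 198 and 53.5 in the Jmjd2c knockdown, and 46.0, 48.8 and 54.8 in the control. On it the Jmjd2b arrays were again above all others, but 1 Jmjd2c array fell within the control range. In a fit of all probe sets it gave 2.79 (limma adjusted p = 0.000962) in the Jmjd2b knockdown and 0.89 (limma adjusted p = 0.301) in the Jmjd2c knockdown. Direction and calls were thus those of the chosen probe set, and the size of the rise was not.

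Vim, the vimentin gene, read 6061, 5341 and 5829 in the Jmjd2b knockdown, 5612 and 6968 in the Jmjd2c knockdown, and 5330, 4251 and 5185 in the control. All knockdown arrays were above all control arrays, by a narrow margin for Jmjd2b array 2. The difference was 0.23 ± 0.11 (SE, limma adjusted p = 0.154) in the Jmjd2b knockdown and 0.35 ± 0.12 (SE, limma adjusted p = 0.0935) in the Jmjd2c knockdown, with 95% intervals of -0.01 to 0.46 and 0.09 to 0.61. A second Vim probe set passed the test in the Jmjd2c knockdown in the fit of all probe sets (0.47, limma adjusted p = 0.0458).

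**Figure D3:**
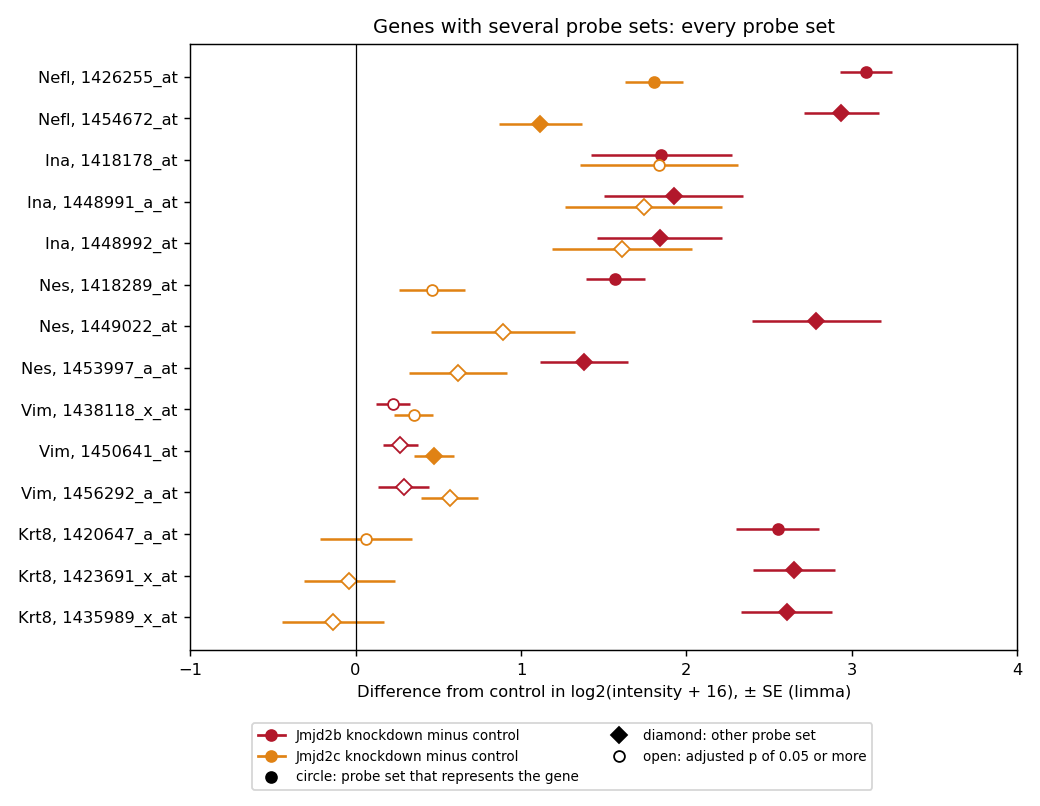
Every probe set of the 5 genes with more than 1, as the difference of each knockdown from the control in log2(intensity + 16) with limma standard errors, from a fit of all probe sets; circles mark the probe set that represents the gene and filled symbols an adjusted p under 0.05. Probe sets of 1 gene lie close together for Ina and Krt8, while those of Nes spread over 1.38 to 2.79 in the Jmjd2b knockdown. Those of Nefl lie at 1.80 and 1.12 in the Jmjd2c knockdown.

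Of the keratins, a pair rose in the Jmjd2b knockdown. The 2 other chains had negative differences in both knockdowns, and each passed the test in only 1. Krt8, the type II chain of simple epithelia, read 2122, 2355 and 3607 in the Jmjd2b knockdown, 326 and 631 in the Jmjd2c knockdown, and 479, 479.7 and 356 in the control. Only the Jmjd2b arrays stood apart, for the Jmjd2c arrays lay on both sides of the control range. The difference was 2.55 ± 0.26 (SE, limma adjusted p = 0.000173) in the Jmjd2b knockdown, a ratio of mean intensities of 6.15, and 0.06 ± 0.29 (SE, limma adjusted p = 0.931) in the Jmjd2c knockdown, with a 95% interval of -0.58 to 0.70. Without Jmjd2c array 2 the Jmjd2c difference was -0.40, and without control array 3 it was -0.07.

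Krt18, its type I partner, read 2340, 2773 and 4830 in the Jmjd2b knockdown, 715 and 1082 in the Jmjd2c knockdown, and 617, 814 and 639 in the control. Here too the Jmjd2b arrays were above all others, and the Jmjd2c and control arrays overlapped. The difference was 2.18 ± 0.25 (SE, limma adjusted p = 0.000336) in the Jmjd2b knockdown and 0.35 ± 0.28 (SE, limma adjusted p = 0.505) in the Jmjd2c knockdown, with a 95% interval of -0.28 to 0.99. The other 2 Krt8 probe sets gave a Jmjd2b difference of 2.65 and 2.61, beside a Jmjd2c difference of -0.04 and -0.14.

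Krt7, a type II chain of ducts and other simple epithelia, fell in the Jmjd2b knockdown, where Krt8 rose. It read 41.4, 47.2 and 125 in the Jmjd2b knockdown, 52.2 and 62.4 in the Jmjd2c knockdown, and 195, 122 and 140 in the control. Jmjd2b array 3 lay inside the control range, and the Jmjd2c arrays were all below it. The difference was -1.05 ± 0.31 (SE, limma adjusted p = 0.0335) in the Jmjd2b knockdown and -1.18 ± 0.35 (SE, limma adjusted p = 0.0618) in the Jmjd2c knockdown, with a 95% interval of -1.95 to -0.40. The Jmjd2b call was lost in 5 of 19 alternatives: without control array 1 or 3, without Jmjd2b array 1 or 2, and with array kind as a block.

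Krt19, a type I chain without the usual tail domain, fell in the Jmjd2c knockdown. Levels were 254, 194 and 261 in the Jmjd2b knockdown, 130.4 and 72.6 in the Jmjd2c knockdown, and 301, 309 and 344 in the control. The groups did not overlap, with the Jmjd2c knockdown lowest and the control highest. The difference was -0.41 ± 0.20 (SE, limma adjusted p = 0.163) in the Jmjd2b knockdown, with a 95% interval of -0.85 to 0.02, and -1.55 ± 0.22 (SE, limma adjusted p = 0.00459) in the Jmjd2c knockdown.

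The genome places some members side by side. In the RefSeq gene order of GRCm38.p6 no protein-coding gene lies between Nefl and Nefm on chromosome 14, or between Krt8 and Krt18 on chromosome 15. Between Krt7 and Krt8 lie 23 protein-coding genes, of which 20 were measured, all of them keratins. Of those 20, 2 fell in the Jmjd2b knockdown, Krt88 (-0.49, limma adjusted p = 0.0238) and Krt6b (-0.70, limma adjusted p = 0.0426). Over all genes, 12.9% were called lower and 11.5% higher there, so 2 falls do not set this interval apart. In the Jmjd2c knockdown 0 of the 20 passed limma's test, with 1 at an unadjusted p under 0.05. None of the 20 rose in the Jmjd2b knockdown by limma, and 0 were higher at an unadjusted p under 0.05.

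The 250 bases before the start of 4 members are shown, to set the co-moving keratin pair beside Krt7 and Ina. Krt7 is a keratin that fell in the Jmjd2b knockdown, and Ina is among the members that rose in both. The windows come from RefSeq (GRCm38.p6), whose promoter table matched 6 of the 10 members, and are written 5′ to 3′ on the gene's strand. Nefl and Nefm, which also rose in both, were not matched, nor were Nefh and Krt19. Krt8 lies on the minus strand at chr15:102004343-102004592, Krt18 on the plus strand at chr15:102027966-102028215, Krt7 on the plus strand at chr15:101412153-101412402 and Ina on the plus strand at chr19:47014431-47014680. Capitals mark matches, on either strand, to any of 5 motifs, none of which overlapped another in these windows. The TATA box was searched as TATAAA, the GC box as GGGCGG and the CCAAT box by those letters. An AP-1 site was searched as TGANTCA and an E-box as CANNTG.
Krt8: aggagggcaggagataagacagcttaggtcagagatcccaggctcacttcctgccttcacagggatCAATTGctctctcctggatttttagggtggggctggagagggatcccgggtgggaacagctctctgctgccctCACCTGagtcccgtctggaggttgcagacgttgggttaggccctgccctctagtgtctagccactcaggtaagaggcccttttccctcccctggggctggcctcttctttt
Krt18: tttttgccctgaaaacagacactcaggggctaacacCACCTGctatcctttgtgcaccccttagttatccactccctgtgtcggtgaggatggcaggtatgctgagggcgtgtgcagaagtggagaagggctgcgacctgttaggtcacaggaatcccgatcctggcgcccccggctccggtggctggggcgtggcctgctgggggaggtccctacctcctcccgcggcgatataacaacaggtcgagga
Krt7: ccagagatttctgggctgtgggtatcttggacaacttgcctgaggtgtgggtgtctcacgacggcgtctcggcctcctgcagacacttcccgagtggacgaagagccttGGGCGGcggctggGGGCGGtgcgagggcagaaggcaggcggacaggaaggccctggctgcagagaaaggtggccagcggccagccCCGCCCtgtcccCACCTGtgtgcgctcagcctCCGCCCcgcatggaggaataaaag
Ina: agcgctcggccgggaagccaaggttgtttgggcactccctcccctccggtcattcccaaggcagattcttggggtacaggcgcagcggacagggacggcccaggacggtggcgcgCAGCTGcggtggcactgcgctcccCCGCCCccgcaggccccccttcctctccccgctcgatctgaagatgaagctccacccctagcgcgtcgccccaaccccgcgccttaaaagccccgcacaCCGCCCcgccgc

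In these windows Krt8 and Krt18 held E-box matches alone, 2 in Krt8 and 1 in Krt18, whereas Krt7 held 4 GC boxes and 1 E-box and Ina held 2 GC boxes and 1 E-box. Among 32851 promoter windows of the same length, 66.2% held an E-box, 32.7% a GC box, 33.8% a CCAAT box, 12.4% a TATA box and 6.75% an AP-1 site. Of the other 2 matched members, Nes held 2 GC boxes, and Vim held 1 TATA box, from 32 to 27 bases before the start, with 2 CCAAT boxes. Bases G and C made up 58.0% of the Krt8 window, 60.4% of Krt18, 66.0% of Krt7 and 70.8% of Ina, and the median of all windows was 52.4%. A match is a description of the letters and not a site of binding.

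Set directly against each other, the knockdowns differed in 4 members, all higher in the Jmjd2b knockdown, where 0.467% of all genes were called, 0.33% higher and 0.137% lower. The Jmjd2b minus Jmjd2c difference was 2.79 ± 0.31 for Nefm (SE, limma adjusted p = 0.0152), ranked 2 among the upward differences of all genes. Krt8 followed with 2.49 ± 0.29 (SE, limma adjusted p = 0.0152) and Krt18 with 1.82 ± 0.28 (SE, limma adjusted p = 0.0315). For Nefl it was 1.28 ± 0.18 (SE, limma adjusted p = 0.0215), and 1.82 on its second probe set in a fit of all probe sets (limma adjusted p = 0.0203). Nes, at 1.11 ± 0.20 (SE, limma adjusted p = 0.0501), and Krt19, at 1.14 ± 0.22 (SE, limma adjusted p = 0.0561), missed the threshold. Ina differed by 0.01 ± 0.49 (SE, limma adjusted p = 0.994), with a 95% interval of -1.08 to 1.11 that leaves room for differences either way, and its sign turned without Jmjd2b array 3 (-0.16) or Jmjd2c array 2 (-0.33). Krt7 differed by 0.13 ± 0.35 (SE, limma adjusted p = 0.926), with a 95% interval of -0.65 to 0.90. The median difference was 1.12 over the members and -0.00 over all genes.

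These 4 calls rest on few arrays. With array kind as a block, with only these 2 groups in the fit, or without Jmjd2b array 2, none of the 4 passed the threshold. The Krt18 call was lost in 7 of 20 alternatives, those 3 included: it also failed without control array 1, 2 or 3 (adjusted p = 0.0605, 0.0631 and 0.0686) and in limma without a trend (adjusted p = 0.0591). The Nefl call was lost as well without Jmjd2b array 3 (limma adjusted p = 0.054). The replicate number as a block left all 4 calls in place. All 4 differences kept their sign under every alternative run. Within the 5 arrays with values below 1, where no test was made, the Jmjd2b minus Jmjd2c difference was 2.76 for Nefm, 2.56 for Krt8, 1.92 for Krt18 and 1.25 for Nefl. The knockdowns did not overlap for these 4, so the sign there was fixed beforehand and only the size is of use.

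Against the control, the sizes of the rises in the Jmjd2b knockdown are given for each kind of array. In the arrays whose values stop at 1, Jmjd2b array 2 minus control arrays 1 and 2 gave 3.00 for Nefl, 4.55 for Nefm, 2.09 for Ina, 1.49 for Nes, 2.26 for Krt8 and 1.94 for Krt18. In the others, Jmjd2b arrays 1 and 3 minus control array 3 gave 3.35, 4.73, 1.24, 1.56, 2.90 and 2.37 for the same genes in that order. Every Jmjd2b array lay above every control array for these 6, so a positive sign in either kind was fixed beforehand. Only the sizes are of use, and that of Ina differed most between the kinds. For the Jmjd2c knockdown only control array 3 shares its kind, and against it Nefl was 2.10 higher, Nefm 1.96 higher and Ina 1.18 higher, with Krt19 at -1.66. Those signs were fixed likewise, as the groups did not overlap for these genes.

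Among the 3 Jmjd2b knockdown arrays, array 3 was the highest for most members. That array, which had the least Kdm4b, held the highest level in 9 of 10 members, Vim being the exception, while 38.4% of all genes were highest on that array. For Krt7 and Krt19, which were below the control mean, the difference from it was therefore smallest on array 3 (-0.24 and -0.27). The 10 members share these libraries, and the cause of the pattern was not tested. In the Jmjd2c knockdown 4 members were higher on array 1 and 6 on array 2.

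The array profiles of Krt8 and Krt18 were close to each other. Each gene's profile was its log2 difference from the control mean on the 8 arrays, and likeness was the root mean square (RMS) distance between profiles. Krt8 and Krt18 lay 0.32 apart, whereas Nefl and Nefm lay 0.99 apart. Outside the members, the genes nearest to Krt8 were Anxa1 (0.33), which encodes the phospholipid-binding annexin A1, Tmcc3 (0.35) and Shisa3 (0.49). Those nearest to Krt18 were Anxa1 (0.29), the insulin receptor substrate gene Irs1 (0.34) and Pla2g7 (0.35). Nefl was closest to the carbonic anhydrase gene Car2 (0.27), to Lzts1 (0.28) and to Serpinb9 (0.28). Nefm was closest to Sp5 (0.39), a target of Wnt signalling, to the trophectoderm and caudal factor gene Cdx2 (0.48) and to the zinc transporter gene Slc39a8 (0.62). These distances describe 8 arrays and say nothing of shared control.

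The other listed genes of the filament family that passed the test were all lower. For this list and the lists and markers below, the all-gene shares were 11.5% higher and 12.9% lower in the Jmjd2b knockdown. In the Jmjd2c knockdown they were 4.28% and 5.25%. Of 24 measured, the Jmjd2b knockdown had 0 higher and 5 lower by limma (median -0.11), and the Jmjd2c knockdown 0 higher and 3 lower (median -0.12). At an unadjusted p under 0.05, 1 was higher in each knockdown. Prph, the peripherin of peripheral neurons and a frequent partner of neurofilaments, fell in both, by 1.09 ± 0.19 (SE, limma adjusted p = 0.00281) in the Jmjd2b knockdown and by 1.15 ± 0.21 (SE, limma adjusted p = 0.0117) in the Jmjd2c knockdown. The muscle subunit Des fell by 0.83 in the Jmjd2b knockdown and by 1.22 in the Jmjd2c knockdown, and the nuclear lamin gene Lmna fell by 0.38 and by 0.77. The type I keratin gene Krt17 fell by 0.94 in the Jmjd2b knockdown, with a limma adjusted p of 0.00881, and was at -0.06 in the Jmjd2c knockdown (limma adjusted p = 0.918).

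Calls among genes that anchor filaments went both ways in the Jmjd2b knockdown. Of 16 linker and desmosome genes, it had 2 higher and 1 lower by limma, beside 11.5% and 12.9% of all genes. The Jmjd2c knockdown had 0 higher and 4 lower by limma, beside 4.28% and 5.25% of all genes. At an unadjusted p under 0.05, the Jmjd2c knockdown had 1 higher and 5 lower. Dsp, desmoplakin, which ties keratins to desmosomes, averaged 1238 ± 130 in the Jmjd2b knockdown, 548 ± 66.3 in the Jmjd2c knockdown and 623 ± 73.6 in the control (SD, n = 3, 2 and 3). It rose by 0.97 ± 0.13 (SE, limma adjusted p = 0.000721) in the Jmjd2b knockdown and stood at -0.18 ± 0.15 (SE, limma adjusted p = 0.521) in the Jmjd2c knockdown, and the knockdowns differed by 1.15 ± 0.15 (SE, limma adjusted p = 0.019). The keratin-binding epiplakin gene Eppk1 fell by 1.70 and the desmosomal cadherin gene Dsg2 by 0.88 in the Jmjd2c knockdown. In the Jmjd2b knockdown they were at -0.28 and 0.02 and did not pass. The desmosomal plaque gene Pkp3 fell in both, by 0.84 in the Jmjd2b knockdown, with a limma adjusted p of 0.00416, and to 77.9 ± 18.2 in the Jmjd2c knockdown (limma adjusted p = 0.0099), against 170 ± 15.4 in the control (SD, n = 2 and 3).

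Calls in the neuronal cytoskeleton list went both ways, as over all genes. Among 18 axonal and neuronal cytoskeleton genes, the Jmjd2b knockdown had 3 higher and 3 lower (median 0.02), beside 11.5% and 12.9% of all genes. In the Jmjd2c knockdown 1 rose and 2 fell (median 0.03), beside 4.28% and 5.25% of all genes. Mapt, the axonal microtubule protein tau, averaged 33.3 ± 9.55 in the Jmjd2b knockdown, 61.8 ± 5.90 in the Jmjd2c knockdown and 250.5 ± 28.0 in the control (SD, n = 3, 2 and 3). It fell by 2.45 ± 0.17 (SE, limma adjusted p = 3.44e-05) in the Jmjd2b knockdown and by 1.77 ± 0.19 (SE, limma adjusted p = 0.00182) in the Jmjd2c knockdown. The tubulin gene Tubb2b fell by 0.57 in the Jmjd2b knockdown and was at -0.25 in the Jmjd2c knockdown, without passing there. Basp1, a growth cone protein, rose by 0.80 in the Jmjd2b knockdown and 0.60 in the Jmjd2c knockdown, and the doublecortin-like kinase gene Dclk1 rose by 0.66 in the Jmjd2b knockdown and was at 0.56 in the Jmjd2c knockdown (limma adjusted p = 0.0594).

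Of 10 measured actin, tubulin and associated genes used by most cells, the Jmjd2b knockdown had 8 higher and 0 lower by limma (median 0.34), and the Jmjd2c knockdown 3 higher and 0 lower (median 0.18). At an unadjusted p under 0.05, 9 were higher in the Jmjd2b knockdown, 8 in the Jmjd2c knockdown and 0 lower in either. The actin-binding tropomyosin gene Tpm1 led them, with 2610 ± 849 in the Jmjd2b knockdown, 1118 ± 105 in the Jmjd2c knockdown and 311 ± 69.5 in the control (SD, n = 3, 2 and 3). Its difference was 2.98 ± 0.22 (SE, limma adjusted p = 5.8e-05) in the Jmjd2b knockdown and 1.82 ± 0.25 (SE, limma adjusted p = 0.00425) in the Jmjd2c knockdown. Tpm4 rose by 1.57 in the Jmjd2b knockdown and 0.72 in the Jmjd2c knockdown, and the tubulin gene Tubb6 by 1.17 and 0.58. Cfl1, which severs actin filaments, rose by 0.32 in the Jmjd2b knockdown and was at 0.21 in the Jmjd2c knockdown (limma adjusted p = 0.0605). Tuba1b and Tuba1c were not measured.

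**Figure D4:**
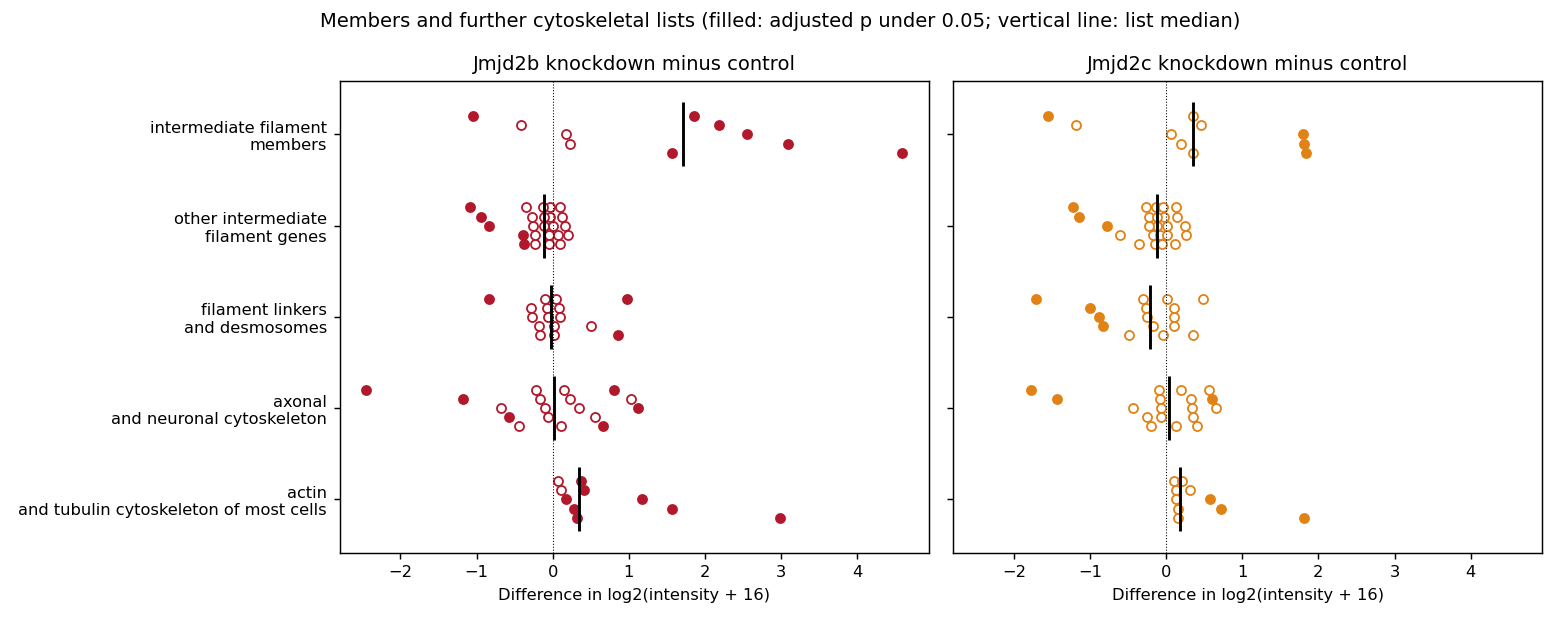
Difference of each gene from the control in log2(intensity + 16), 1 point per gene, for the 10 members and the 4 further cytoskeletal lists, with the Jmjd2b knockdown left and the Jmjd2c knockdown right; filled points have an adjusted p under 0.05 and vertical bars are list medians. The members reach 4.59 in the Jmjd2b knockdown, while the 24 other filament genes stay between -1.09 and 0.20.

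Because several members are used as markers of differentiated cells, the markers of cell types that such cultures could hold are given beside them. Of 10 measured neural and neuronal markers, 1 rose and 0 fell by limma in each knockdown, and at an unadjusted p under 0.05, 1 was higher and 2 were lower in each. Their summed level was 803 to 1237 in the Jmjd2b knockdown, 785 to 1209 in the Jmjd2c knockdown and 878 to 1112 in the control. The 1 that rose was Pax6, a neural and eye transcription factor gene, by 1.44 ± 0.28 (SE, limma adjusted p = 0.00433) in the Jmjd2b knockdown and 1.88 ± 0.31 (SE, limma adjusted p = 0.00741) in the Jmjd2c knockdown. Neurog2, which defines early neurons, was between 5.77 and 20.5 on all arrays, and the synaptic gene Snap25 between 11.4 and 20.3. Other genes of the list were brighter: Neurod1, the brightest, read 189 to 685 over all arrays, Sox1 38.1 to 262, Elavl4 56.3 to 103 and Syp 43.6 to 64.1. None of these passed in either knockdown. The neuronal genes Rbfox3 and Elavl3 were at -0.61 and -0.51 in the Jmjd2b knockdown, beside -0.80 and -0.59 in the Jmjd2c knockdown, all without passing. Isl1, of motor and sensory neurons, was at 0.39 in the Jmjd2b knockdown and -0.00 in the Jmjd2c knockdown and did not pass either.

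Of 11 epithelial markers, 4 were higher and 0 lower by limma in the Jmjd2b knockdown (5 and 0 at an unadjusted p under 0.05), where Krt8 and Krt18 rose, and 1 was higher and 1 lower in the Jmjd2c knockdown. Their summed level was 11854 to 19643 in the Jmjd2b knockdown, 7625 to 12026 in the Jmjd2c knockdown and 7597 to 10755 in the control. The largest parts of that sum were Cdh1, at 3183 to 7960 over all arrays, and Epcam, at 1487 to 4794. Both were already bright in the control ES cells, at 4137 to 5462 and 1487 to 2493, so the sum does not single out epithelial cells. The claudin gene Cldn6 rose by 2.03 and the adhesion gene Epcam by 0.90 in the Jmjd2b knockdown, and neither passed in the Jmjd2c knockdown (0.03 and 0.39). Grhl2, a regulator of epithelial genes, rose by 1.71 in the Jmjd2b knockdown and 1.27 in the Jmjd2c knockdown. The claudin gene Cldn4 was at -0.46 in the Jmjd2b knockdown, without passing, and fell by 1.46 in the Jmjd2c knockdown. Trp63 and Krt14, which define basal epithelium, stayed between 14.9 and 30.8 and between 14.0 and 24.8 on all arrays. The basal keratin gene Krt5 was brighter, at 45.5 to 70.3 over all arrays, and did not pass in either knockdown.

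Among 11 trophectoderm markers 3 rose and 3 fell in the Jmjd2b knockdown, and 1 rose and 1 fell in the Jmjd2c knockdown. Cdx2, which defines the trophectoderm and is also used in later hindgut and tail tissue, read 331, 532 and 464 in the Jmjd2b knockdown, 28.6 and 18.6 in the Jmjd2c knockdown, and 5.63, 5.94 and 1.14 in the control. Its arrays did not overlap between any of the groups, and the difference was 4.48 ± 0.20 (SE, limma adjusted p = 6.97e-06) in the Jmjd2b knockdown and 0.97 ± 0.22 (SE, limma adjusted p = 0.0255) in the Jmjd2c knockdown. Eomes, another trophectoderm factor gene, rose by 2.12 in the Jmjd2b knockdown and was at 0.47 in the Jmjd2c knockdown. Gata3 rose by 1.53 in the Jmjd2b knockdown (limma adjusted p = 0.0361). In the Jmjd2c knockdown Gata3 was at 1.45 without passing, with 8.75 on array 1 and 109 on array 2. Ascl2 fell in both, and Tead4 and Tfap2c (-0.44) fell in the Jmjd2b knockdown. The trophoblast gene Elf5 stayed between 7.80 and 24.9 on all arrays. The summed level of the list was 4184 to 4782 in the Jmjd2b knockdown, 4045 to 4770 in the Jmjd2c knockdown and 3976 to 4651 in the control. Most of it came from Tfap2c, at 2304 to 3722 over all arrays, with Krt42 at 508 to 705, so the sum hardly reflects Cdx2 or Eomes.

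Primitive endoderm markers counted 2 rises and 1 fall of 8 in the Jmjd2b knockdown and 1 rise in the Jmjd2c knockdown, with summed levels of 519 to 572 in the Jmjd2b knockdown, 494 to 680 in the Jmjd2c knockdown and 541 to 651 in the control. Dab2 rose in both, Foxa2 rose and Lama1 fell in the Jmjd2b knockdown, and the defining factor gene Gata6 was at -0.26 in the Jmjd2b knockdown and -0.61 in the Jmjd2c knockdown without passing. Fibroblast markers, which feeder cells would carry, counted 2 rises and 2 falls of 11 in the Jmjd2b knockdown and 1 rise and 2 falls in the Jmjd2c knockdown. Their sum was 465 to 509.6 in the Jmjd2b knockdown, 463 to 561 in the Jmjd2c knockdown and 656 to 717 in the control. Twist1 rose in both knockdowns and Col1a1 in the Jmjd2b knockdown, while Pdgfrb and Thy1 fell in both. The summed ES cell markers stood at 41541 to 44756 in the Jmjd2b knockdown, 46607 to 47700 in the Jmjd2c knockdown and 58642 to 61242 in the control, with Klf4, Esrrb, Zfp42 and Tfcp2l1 lower in both knockdowns. The part of these marker shifts in the filament values was not tested. Krt5, Krt14 and Krt42 belong both to the other filament genes and to a marker list.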

How the data were processed

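RNA of 8 samples was profiled on 1 array each. Biotin-labelled cRNA was made from total RNA by the Affymetrix protocol, per the labels' protocols. The deposited table holds linear intensities for each probe set, and the authors' probe summary, background correction and scaling are not given in the sources used here. Array medians lay between 44.7 and 46.6, and no further normalization was applied. The number of arrays limits the precision.

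Groups and replicate numbers came from the sample titles. Of 45101 probe sets, 64 were array controls, 34945 had exactly 1 gene symbol in the platform annotation, 932 had several and 9160 had none listed. Of a gene's probe sets, the one with the highest mean of log2(value + 16) over all 8 arrays was kept. Group means were fitted to all 8 arrays with limma 3.58.1 (R 4.3.3; lmFit, eBayes with a trend), and the scripts were tested on simulated data. Python 3.11.15, pandas 2.3.3 and matplotlib 3.10.9 were used.

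Named are all members, up to 4 genes of each list with the smallest p in either knockdown, and the 3 genes nearest to Nefl, Nefm, Krt8 and Krt18. Single low defining markers, some brighter or called markers and the keratins between Krt7 and Krt8 were added after their values were seen. The members and lists were chosen with earlier results of these data known. Alternatives changed the added constant, scaling, filter, probe set choice, blocks and samples, 20 in all. No 2 arrays shared more than 0.621% of their values exactly.

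Deviations from group means correlated at 0.176, 0.111 and 0.116 across genes between same-numbered Jmjd2b knockdown and control arrays. Between others they correlated at -0.127 to 0.0164. The numbers may thus pair these arrays, though the labels state no pairing. The main fit left any pairing out and treated all arrays as independent, and the replicate number as a block was run as an alternative. Same-numbered Jmjd2c knockdown and control arrays correlated at 0.0422 and 0.0640.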

Additional observations from a re-analysis of the deposited data

How the results depend on the processing

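Of 597 alternative values over 30 member results, 536 kept direction and call, 33 lost the call, 13 gained one and 15, in 7 results, changed sign. The sign changes were all in differences that passed the test neither before nor after. With 1 array left out, the Jmjd2b minus control difference of Nefh ran between -0.027 (without Jmjd2b array 3) and 0.28, and in the Jmjd2c knockdown that of Nefh between -0.0015 (without Jmjd2c array 2) and 0.39 and that of Krt8 between -0.40 (without Jmjd2c array 2; also negative without control array 3, -0.07) and 0.52. The mean of all Krt8 probe sets gave -0.037 there. Between the knockdowns, 1 array left out gave -0.33 (without Jmjd2c array 2) to 0.35 for Ina (also -0.16 without Jmjd2b array 3), -0.28 (without Jmjd2b array 3) to 0.37 for Krt7, -0.22 to 0.17 for Nefh, positive without Jmjd2c array 2 or Jmjd2b array 1 or 2 (0.06 and 0.09), and -0.28 (without Jmjd2c array 1) to 0.031 (without Jmjd2c array 2) for Vim. With the replicate number as a block Ina was -0.24 and Krt7 -0.055, and with array kind as a block Nefh was 0.015. The 6 members that rose in the Jmjd2b knockdown passed in 20 of 20 alternatives, as did Nefl, Nefm and Krt19 in the Jmjd2c knockdown. The Jmjd2c call of Ina had an adjusted p of 0.0303 to 0.191, and the Jmjd2b call of Krt7 of 0.00177 to 0.132. Genes called in the Jmjd2b knockdown numbered 4441, against 7785 over all probe sets, and 2624 to 5615 with 1 array left out. Members that fell there numbered 1, against 0 with array kind as a block, 0 among genes above the median level, where Krt7 was not tested, and 2 with only these 2 groups in the fit, which added Krt19 (0 to 2 with 1 array left out). Genes called in the Jmjd2c knockdown numbered 1733, against 1043 with array kind as a block and 874 with only 2 groups (462 to 2919 with 1 array left out, lowest without control array 3 and highest without Jmjd2c array 1). Members that rose there numbered 2 to 3 and members that fell 1 to 2 with 1 array left out, and 2 fell with only 2 groups.

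Between the knockdowns 85 genes were called, against 149 over all probe sets, 4 with array kind as a block, 2 with only these 2 groups and 136 with 64 added. With 1 array left out the count was 2 without Jmjd2b array 2 and up to 788 without Jmjd2c array 1. The 4 members higher in the Jmjd2b knockdown became 0 with array kind as a block and 0 with only 2 groups, and 0 to 6 with 1 array left out. With the replicate number as a block the count of genes was 145, and the block changed no member's call. Quantile normalization gave 64 genes higher and 50 lower between the knockdowns, against 60 and 25. The causes of these shifts were not tested. The added constant limits Nefm most, whose control level of 23.0 to 30.3 lay near it.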
